A study of Mus musculus with 4 samples.

Results

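The RNAs of 5 genes of the DNA methylation machinery, Dnmt1, Uhrf1, Dnmt3a, Dnmt3b and Tet1, carried 54 of the 47777 eIF4A2 binding sites (peaks) in a list deposited for mouse embryonic stem cells. Peaks were chosen by position: a peak counted for a gene when its midpoint lay in that gene's mm9 window on the gene's strand. Tet1 held 24 peaks, Dnmt1 held 13, Dnmt3a held 10, Uhrf1 held 4 and Dnmt3b held 3. The same windows held 0 peaks on the opposite strand. The windows lay on chromosome 9 for Dnmt1 (minus strand), 17 for Uhrf1 (plus), 12 for Dnmt3a (plus), 2 for Dnmt3b (plus) and 10 for Tet1 (minus), and were 25 to 115 kb long. Position alone assigned the peaks to these genes, and no fold value entered that step. The genes themselves were chosen with earlier results of these data known.

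The cells were of the J1 line, strain 129S4/SvJae, grown without feeder cells in serum and leukemia inhibitory factor, a cytokine that keeps such cells self-renewing. They were irradiated with 254 nm ultraviolet light at 400 mJ per square cm, which fixes proteins to bound RNA. In eCLIP, an antibody, here against eIF4A2, then recovers the protein with its RNA (the IP libraries), and RNA of the starting material (the input libraries) gives the background. There were 2 IP and 2 input libraries, numbered 1 and 2 in each group and described as biological replicates, with no treatment or genotype that differed between groups. The 4 libraries were sequenced as paired 50-base reads, and their depth is not given by the list.

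The values are the authors' own log2 fold of IP over input, 1 per peak, for the 4 libraries together. A log2 fold of 1 is 2-fold, and no peak in the list lies below it. Because the list gives no value for a single library, no spread between replicates, no interval for a peak's fold and no new test of IP against input could be had. The differences below are therefore descriptions of 1 list, none of them weighed against replicate error. RNA levels are not part of the list either, so the identity of the cells was not checked against marker genes, and a gene with more RNA could give more or better-supported peaks; the part of RNA level in these counts was not tested.

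eIF4A2 is a DEAD-box RNA helicase, a close relative of the eIF4A1 helicase that opens the leader of mRNAs for the ribosome. The 5 genes make the enzymes that write, copy and remove methyl marks on cytosine in DNA. DNMT3A and DNMT3B place the marks anew, DNMT1 copies them to the daughter strand after replication, UHRF1 recognises the half-methylated DNA and brings DNMT1 to it, and TET1 oxidises the methyl group as the first step of its removal. Mouse embryonic stem cells are known for expressing all of these genes.

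The windows matched the genes in chromosome and strand, but not all of them in length. In the GRCm38 annotation (GENCODE M21), all 5 genes lie on the chromosome and strand that the windows give. The gene lengths there were 52.7 kb for Dnmt1 (window 51 kb), 108 kb for Dnmt3a (115 kb), 38.3 kb for Dnmt3b (43 kb), 20.2 kb for Uhrf1 (25 kb) and 104 kb for Tet1 (80 kb). The Tet1 window is thus well short of the longest annotated span of that gene, and the Dnmt1 window slightly so. Beyond chromosome and strand only lengths were compared, since the builds differ, so the placement of the windows was not checked. Which exon, intron or untranslated region a peak lies in was not determined, and no peak sequence is given, because no mm9 sequence was at hand.

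As a group the peaks were only moderately enriched. Their median log2 fold was 1.47 (2.77-fold), against 1.65 (3.15-fold) for the whole list, whose quartiles were 1.29 and 2.07. Of the 54 peaks, 7 (13%) stood at 4-fold or more, a log2 value of 2, against 28.3% of all peaks. One Dnmt1 peak stood at 8-fold or more, a log2 value of 3, against 4.03% of all peaks. Tet1 lowered these values: without it, the median over the other 30 peaks was 1.57, and 6 of those 30 (20%) reached 4-fold. By median log2 fold, the order of the genes was Uhrf1 (1.62), Dnmt3a (1.61), Dnmt3b (1.58), Dnmt1 (1.52) and Tet1 (1.31). The ranges of all 5 genes overlapped one another, and with no error for a single fold, neighbours in this order cannot be called different.

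**Figure D1:**
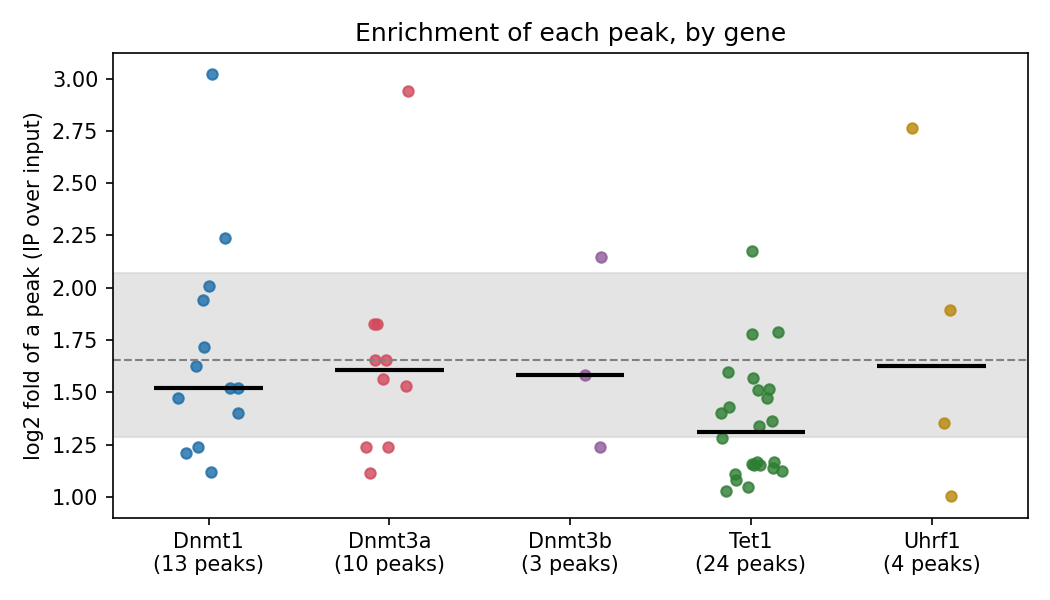
The log2 fold (IP over input) of each of the 54 peaks, by gene; points are spread sideways for legibility, black bars are the medians over a gene's peaks, the dashed line is the median of the whole list (1.65) and the grey band its quartiles (1.29 to 2.07). Tet1 has the most peaks and the lowest median (1.31), and Dnmt1, Dnmt3a and Uhrf1 each have 1 peak above 2.7.

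Peaks were dense in all 5 windows beside the chromosome as a whole. Together the windows, 314 kb, held 1.72 peaks per 10 kb. Tet1 had 3 per 10 kb, 32.4 times the mean of its chromosome strand, and Dnmt1 had 2.55, 28.5 times. Uhrf1 had 1.60 (12.1 times), Dnmt3a 0.87 (10.7 times) and Dnmt3b 0.698 (6.67 times). This order depended on how finely peaks were divided and on the weaker peaks. With peaks within 50 bases joined, Tet1 had 16 in its 80 kb and Dnmt1 still had 13 in its 51 kb. Dnmt1 was then the denser of the pair. Counting only peaks at 4-fold or more, without such joining, Tet1 stood at 4.38 times its chromosome strand, above only Dnmt3a at 3.66. Dnmt1 stood at 20.9 times, Uhrf1 at 9.71 and Dnmt3b at 8.27. These values rest on 3 peaks for Dnmt1 and 1 peak for each of the other genes. By covered bases in place of peaks, Dnmt1 stood at 17.6 times and Tet1 at 40.7. The chromosome mean includes DNA that is not transcribed. As a further yardstick, the same strand of each chromosome was cut into tiles of the window's own length. As many peaks as on Tet1 were held by 0.187% of those tiles, or 1.08% of the 277 that held any peak. For Dnmt1 the shares were 0.206% of the tiles and 1.37% of the 366 that held any. They were 1.53% and 6.9% for Dnmt3a, 2.73% and 24% for Uhrf1, and 6.11% and 42% for Dnmt3b. Tet1 and Dnmt1 were thus near the top of their chromosome strands in number of peaks, while 3 peaks, as on Dnmt3b, were common among tiles of 43 kb that held any. A window set around a gene and a tile on a fixed grid, laid without regard to genes, are not alike. Tiles that overlap the gene's own window were also not left out. These shares therefore describe the counts only.

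**Figure D2:**
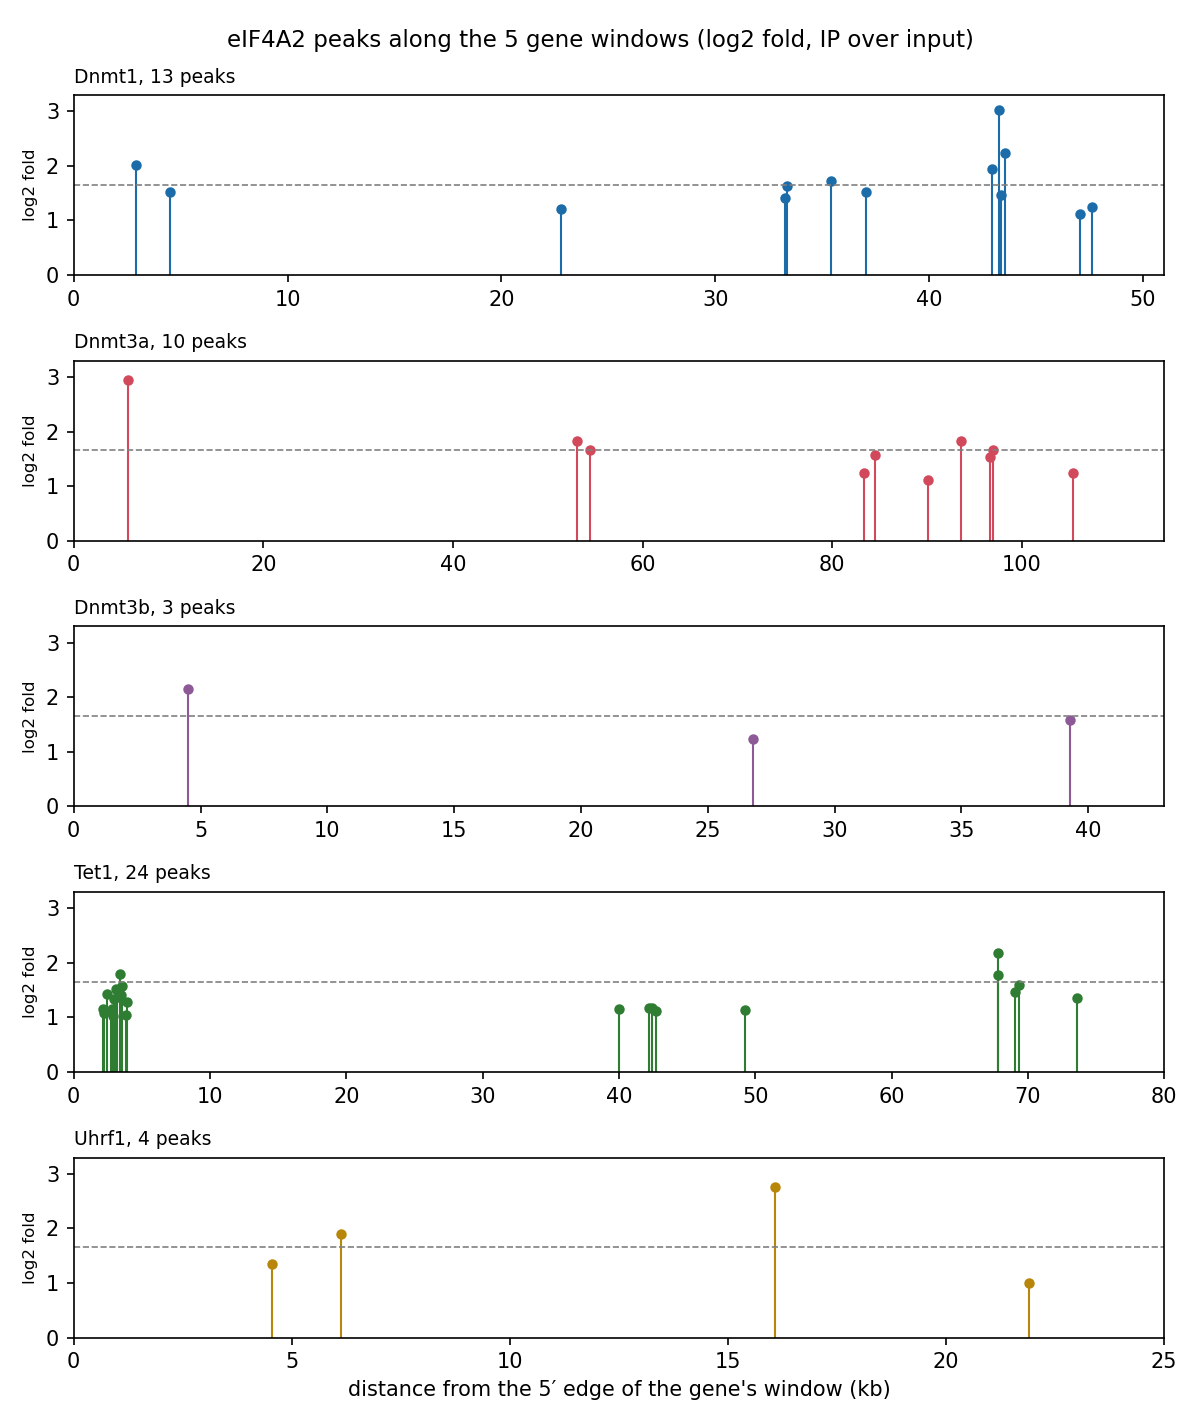
Position and log2 fold (IP over input) of each peak, 1 panel per gene; the horizontal axis is the distance of the peak's midpoint from the 5′ edge of the gene's window in kb (its length differs between panels), and the dashed line is the list's median of 1.65. Tet1 peaks crowd within 4 kb of the 5′ edge, and 10 of 13 Dnmt1 peaks lie 3′ of the window's midpoint.

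The RNA of Dnmt1, the maintenance methyltransferase, carried the strongest single peak of the group, in its 3′ part. This peak covered 20716722 to 20716752 of chromosome 9 (minus strand) and was enriched 8.12-fold, a log2 fold of 3.02, at rank 1895 of the 47777 peaks. It belonged to a cluster of 4 peaks within 572 bases (20716457 to 20717028), whose other log2 folds were 2.24, 1.94 and 1.47. Of the 13 Dnmt1 peaks, the highest pair of folds was therefore in that cluster. The peaks of 2.24 and 1.94 were only 3 and 4 bases wide, however. With at least 20 bases required, only those of 3.02 and 1.47 would remain in it. Next in rank was the 5′-most peak (20757058 to 20757097), whose log2 fold was 2.01. It lay 2.92 kb from the 5′ edge of the window.

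Elsewhere Dnmt1 had weaker peaks. The widest, 64 bases at 20737204 to 20737267, had a log2 fold of 1.21. On the 3′ side of the cluster, the lowest, 1.12, was a 2-base peak at 20712926 to 20712927, and the 3′-most peak, at 20712386 to 20712402, had a log2 fold of 1.24. Peaks on Dnmt1 were narrow, with a median width of 17 bases against 32 for the list, and Dnmt3a was much the same at 18. Of the Dnmt1 peaks, 4 of 13 (30.8%) were under 10 bases wide, against 7.19% of all peaks. That share was 20% on Dnmt3a, 12.5% on Tet1 and 0% on Dnmt3b and Uhrf1. Of the 13 Dnmt1 peaks, 10 lay 3′ of the window's midpoint and 3 lay 5′ of it. The median log2 folds of these groups were 1.57 and 1.52. GRCm38 also has a microRNA gene, Mir7081, that overlaps Dnmt1 on the same strand, and reads from the overlap cannot be told apart from Dnmt1's own.

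Uhrf1, whose protein guides DNMT1, had 4 scattered peaks on the plus strand of chromosome 17 that covered almost the full range of folds in the group. The highest (56456071 to 56456091) was enriched 6.79-fold, a log2 fold of 2.76. The 5′-most peak, at 56444531 to 56444570, had a log2 fold of 1.36, and the next, at 56446122 to 56446134, had 1.89. The 3′-most, at 56461904 to 56461926, had the lowest value of all 54 peaks, 1.00 (2.00-fold), just inside the limit of the list. No pair of Uhrf1 peaks lay within 1000 bases of each other.

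The edge of the Uhrf1 window matters for its count. Beyond the 3′ edge, 0.77 kb away, the list has a peak with a log2 fold of 2.78 (56465752 to 56465784), and 3 peaks (1.45 to 2.78) lay within 5 kb of it. In GRCm38 the next protein-coding gene downstream on this strand is Kdm4b, a histone demethylase gene. Which RNA those 3 peaks belong to was not determined.

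Dnmt3a and Dnmt3b, the de novo methyltransferases, shared one feature: the 5′-most peak had the highest fold in each. On Dnmt3a it covered 3808753 to 3808773 of chromosome 12 (plus strand), was enriched 7.67-fold (log2 fold 2.94) and began the series of peaks 5.76 kb from the window's 5′ edge. On Dnmt3b it covered 153477483 to 153477525 of chromosome 2 (plus strand), was enriched 4.43-fold (log2 fold 2.15) and lay 4.5 kb from the edge. These were the only peaks of either gene at 4-fold or more. On the other genes the 5′-most peak in the window was not the highest: by fold it ranked 3 of 4 on Uhrf1, 3 of 13 on Dnmt1 and 18 of 24 on Tet1. The rank on Tet1 depends on where its window ends, since further peaks lie beyond the 5′ edge, the nearest with a log2 fold of 2.13. On Dnmt3b the rank is among only 3 peaks.

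Dnmt3a peaks were few in the long first part of the window. After the 5′-most peak, none followed for 47.3 kb, and 7 of the 10 lay 3′ of the midpoint. The second highest value, a log2 fold of 1.82, occurred at both 3856094 to 3856110 and 3896584 to 3896601. The lowest was 1.11, at 3893065 to 3893081, and the 3′-most peak, at 3908422 to 3908439, had 1.24. The one pair within 1000 bases comprised the widest peak (3899626 to 3899683, 58 bases), whose log2 fold was 1.53, and its neighbour (3899973 to 3900003), whose log2 fold was 1.65. Spacing was thus loose: 2 of 10 Dnmt3a peaks (20%) had a neighbour within 1000 bases on their strand, against 49.7% of all peaks.

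The other peaks of Dnmt3b had log2 folds of 1.24, at 153499768 to 153499786, and 1.58, at 153512276 to 153512330. The nearest pair of the 3 was 12489 bases apart. GRCm38 has antisense genes that overlap both genes, Dnmt3aos and Dnmt3bos, and the opposite strand of these windows held 0 peaks.

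Tet1, the oxidising enzyme of the group, had the most peaks of the 5 genes, closely spaced and mostly of low fold. Of its 24 peaks, 21 (87.5%) had a neighbour within 1000 bases, against 49.7% of all peaks. The share was 61.5% on Dnmt1 (8 of 13), also above that of the list, 20% on Dnmt3a, and 0% on Dnmt3b and Uhrf1. With peaks within 50 bases joined, it fell to 75% on Tet1 and did not change on the other 4 genes. A same-strand peak touched 8 of the 24 (33.3%) end to end, against 6.79% of all peaks and 0 of 30 on the other 4 genes. The median width was 41.5 bases on Tet1 and 43 on Dnmt3b, above the 32 of the list, and 22 on Uhrf1, 18 on Dnmt3a and 17 on Dnmt1. Only 3 of 24 (12.5%) lay above the list's median fold, where 49% of all peaks do.

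Most Tet1 peaks formed 1 stretch at the 5′ end of the window. On the minus strand of chromosome 10, 14 peaks lay between 62341084 and 62342861, a span of 1778 bases of which they covered 738 (41.5%). Stretches of at least 14 peaks, joined at gaps of up to 1000 bases, were 0.18% of all stretches in the list (57 of 31595). Of those 57, 7.02% (4, this one among them) had a median log2 fold as low as its 1.31. By number of peaks it was thus among the longer chains in the list, and by fold among the weaker of those. Its 14 peaks include 4 touching pairs, each counted as 2 peaks. No count of chains with close peaks joined is given here.

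Within the stretch the 4 highest folds belonged to 5 successive peaks past its middle, and the touching pairs at both ends were low. From 5′ to 3′, the first pair of touching peaks had log2 folds of 1.15 and 1.08, and the peak after it 1.43. The next 4 had 1.12, 1.16, 1.03 and 1.34, the last being the widest peak of all 5 genes at 127 bases. Then came 1.52, 1.51, 1.79, 1.40 and 1.57, and the final touching pair had 1.05 and 1.28. The highest value in the stretch, 1.79 (3.45-fold) at 62341595 to 62341659, was the only one above the list's median, and no peak reached 4-fold. The lowest of Tet1 lay here too, 1.03 at 62342115 to 62342159. In the GRCm38 model with the longest coding sequence, the longest Tet1 exon before the last is 2203 bases; whether the stretch lies in it was not determined.

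**Figure D3:**
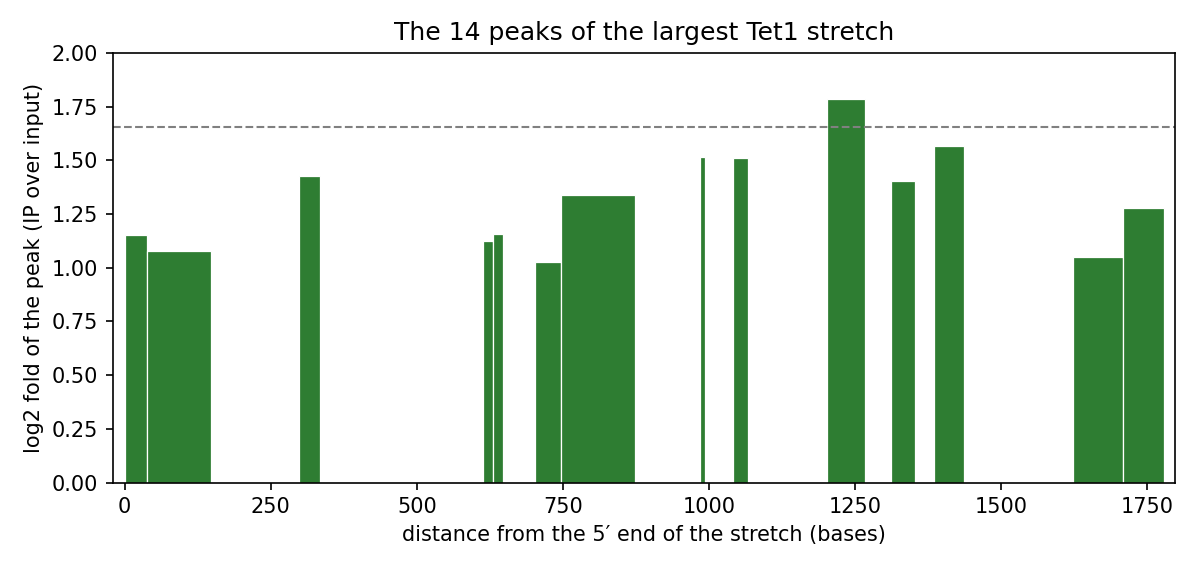
The 14 peaks of the largest Tet1 stretch; the horizontal axis is the distance in bases from the 5′ end of the stretch, each bar spans a peak's width and its height is the log2 fold (IP over input). The dashed line is the list's median of 1.65, which only the peak of 1.79 exceeds, and 4 pairs of bars touch.

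The remaining 10 Tet1 peaks fell into a middle and a 3′ group. In the middle, 5 peaks between 62295717 and 62305025 had log2 folds of 1.11 to 1.17, all near the lower limit of the list. Near the 3′ end, 5 peaks had higher values. The highest of Tet1, 2.17 (4.51-fold), was an 8-base peak at 62277201 to 62277208, with a 9-base peak of 1.78 next to it at 62277217 to 62277225. Upstream of the 3′-most peak (1.36, at 62271410 to 62271427) lay a pair with 1.47 and 1.60. Without the large stretch, 10% of Tet1 peaks lay 5′ of the window's midpoint, against 62.5% with it, and the median was 1.26, so the weak enrichment was not that of the stretch alone.

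The Tet1 window's 5′ edge also leaves peaks outside. The nearest (62349014 to 62349061) lay 4.04 kb beyond it and had a log2 fold of 2.13, and 12 peaks (1.05 to 2.13) lay within 25 kb. Counting these would give Tet1 36 peaks with a median of 1.38. In GRCm38 the Tet1 gene spans 104 kb, longer than the window of 80 kb, so these peaks may lie within Tet1. The next protein-coding gene upstream on the strand is Hnrnph3. The 12 peaks end at 62355606, and without mm9 gene positions the RNA they belong to was not determined. GRCm38 also has an unclassified transcript, Gm48353, and a small nuclear RNA gene, Gm26479, that overlap Tet1 on the same strand. Where they overlap, their reads cannot be told apart from those of Tet1.

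The fold values also differed in arithmetic form between Tet1 and Dnmt3a. After a constant of 0.24 on the log2 scale is subtracted, 99.96% of the folds in the list can be written as one whole number over another, the lower one being 200 or less, within a relative tolerance of 1e-07. For Dnmt3a these ratios, in lowest terms, were simple, namely 13 to 2, 3 to 1, 8 to 3, 2 to 1, 5 to 2, 11 to 6 and 22 to 9, some of them more than once. All 10 had a denominator up to 10, as did 75.6% of all peaks. The 3 ratios of Dnmt3b were 15 to 4, 2 to 1 and 33 to 13. Those of Uhrf1 were 13 to 6, 22 to 7, 23 to 4 and 39 to 23.

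No Tet1 peak had a denominator up to 10. Its ratios ran from 19 to 11 up to 299 to 167 (log2 fold 1.08) and 302 to 141 (log2 fold 1.34), both in the large stretch. The median denominator was 30 on Tet1, 14 on Dnmt1, 6.5 on Uhrf1, 4 on Dnmt3b and 2 on Dnmt3a, against 4 in the list. A denominator of at least 25 was found for 16 of 24 Tet1 peaks (66.7%), against 7.7% of all peaks, and one of at least 100 for 3 of them (12.5%), against 0.345%. The strongest Dnmt1 peak stood at 55 to 8 and its 5′-most peak at 58 to 17. A ratio in lowest terms does not give the read counts behind it, since 2 to 1 can stand for any multiple, and no interval was made from it.

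In the list as a whole, the median log2 fold was 1.82 at a denominator of 1 (13297 peaks), 1.98 at 2 to 3 (7493 peaks), 1.52 at 4 to 10 (15338 peaks), 1.49 at 11 to 24 (7952 peaks) and 1.43 at 25 or more (3678 peaks). It was thus highest at 2 to 3 and lower in each class beyond that. In the last class the 16 Tet1 peaks had a median of 1.25. At denominators of 11 to 24, the 8 Tet1 peaks had a median of 1.32, against 1.49 in the list. On the other 4 genes together, the median was below the list's at a denominator of 1 (1.24, 7 peaks, against 1.82). It was also below at 2 to 3 (1.65, 4 peaks, against 1.98) and at 25 or more (1.31, 2 peaks, against 1.43). It was above the list's at 4 to 10 (1.71, 10 peaks, against 1.52) and at 11 to 24 (1.58, 7 peaks, against 1.49). Fold and denominator come from the same value, so they are not independent measures.

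**Figure D4:**
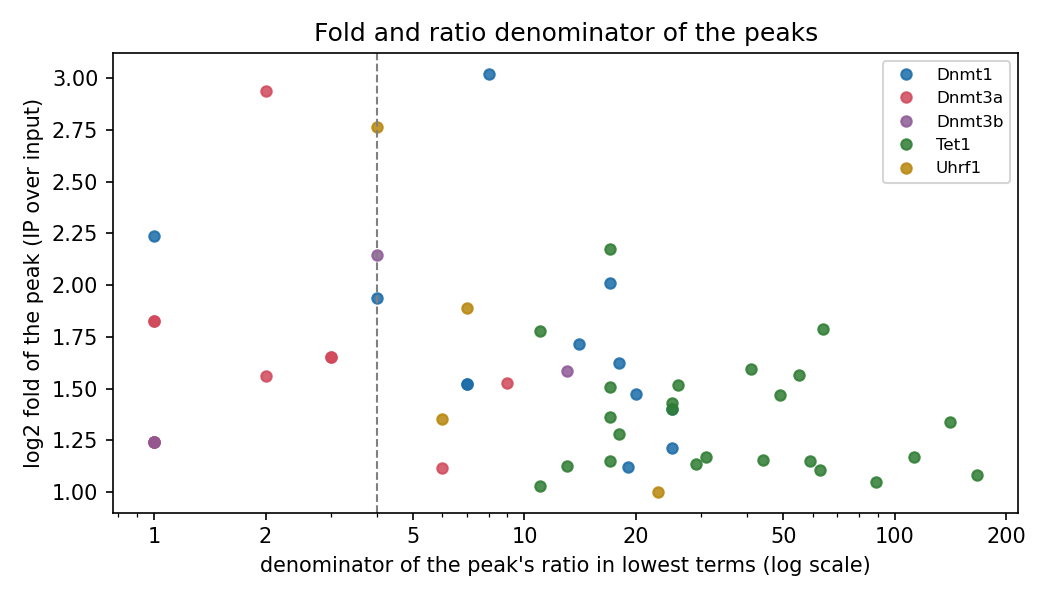
Log2 fold (IP over input) of each peak against the denominator of its whole-number ratio in lowest terms (log axis), coloured by gene; points with equal values overlap, and the dashed line is the list's median denominator of 4. All Tet1 points lie at 11 or more, and all Dnmt3a points at 9 or less.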

How the data were processed

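The list was deposited as 1 file of peaks without a header. The submitters' processing notes name mm9 as the build, STAR 2.6.1b and cutadapt 1.18; for the peak caller and the pooling of replicates, nothing is given in the sources at hand. The log2 values were made by the authors, and their scale was read from the values, which all lie above 1. The members and the lists were chosen with earlier results of these data known. Peaks were assigned to the 5 windows by midpoint and strand, with positions counted from 1. A stretch joins same-strand peaks with gaps of up to 1000 bases. The constant is the commonest log2 value minus 1, which takes the commonest ratio to be 2 to 1. That choice was not checked, and another would change the ratios and their denominators. Medians, counts and shares were computed in Python 3.11.15 with numpy 2.4.6 and pandas 2.3.3. Assignment and ratios were checked on simulated data in which the constant was known beforehand. No test was run. All 5 genes are named; of genes with more than 6 peaks, the 3 highest, the lowest, both end peaks, the widest and the largest stretch were to be named, and other peaks were added after their values were seen. Further genes of the pathway were not analysed here, for want of mm9 positions. Depth per library is unknown.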

Additional observations from a re-analysis of the deposited data

How the results depend on the processing

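Of 109 alternative values, 71 stayed within the set range (1.5 times for counts and densities, 0.1 for medians on the log2 scale, the exact 95% interval over peaks for shares) and 38 did not. The number that stayed is no measure of stability. The interval treats a gene's peaks as independent and is wide where peaks are few. For the share 5′ of the midpoint it ran from 0.84 to 90.6% on Dnmt3b and from 6.76 to 93.2% on Uhrf1. No peak lay within 5 kb outside the Dnmt1, Dnmt3a and Dnmt3b windows, so widening could not move their counts. At a log2 fold of at least 2, the counts were 3 (Dnmt1), 1 (Dnmt3a), 1 (Dnmt3b), 1 (Tet1) and 1 (Uhrf1), and at 3 they were 1, 0, 0, 0 and 0. Requiring 20 bases left 6 peaks on Dnmt1 and 4 on Dnmt3a. Windows narrowed by 5 kb left 1 on Dnmt3b, 10 on Tet1 and 2 on Uhrf1, and widening gave 7 on Uhrf1. The medians moved to 1.87 (Dnmt3b) and 1.36 (Uhrf1) with 20 bases required, and for Uhrf1 to 1.89 in the wider window and 1.36 weighted by width. Neighbours within 10 kb, in place of 1000 bases, were found for 92.3% (Dnmt1), 90% (Dnmt3a), 100% (Tet1) and 100% (Uhrf1) of peaks, and within 200 bases for 0% (Dnmt3a). The median of peaks 5′ of the window's midpoint minus that of peaks 3′ of it was -0.05 for Dnmt1, 0.30 for Dnmt3a, 0.73 for Dnmt3b, -0.08 for Tet1 and -0.26 for Uhrf1. With 20 bases required it was 0.11, 0.71, 0.56, 0.14 and -0.53. It was -0.62 for Dnmt1 at a log2 fold of at least 2, and for Tet1 0.04 when split at the middle of the peaks' span. The sign of this difference thus turned for Dnmt1 and Tet1. Without its largest stretch, chosen after seeing the data, Tet1 gave -0.21 and 10% of peaks 5′ of the midpoint. Density relative to the chromosome strand became 17.6 times for Dnmt1 by covered bases. At a log2 fold of at least 2 it was 3.66 (Dnmt3a), 4.38 (Tet1, from 32.4) and 8.06 (all 5 genes, from 18.5). The cause of these moves was not tested, beyond the fewer peaks that stricter limits leave. Extending the Tet1 window by 25 kb was also chosen after seeing the data. No paired analysis was possible because each peak has 1 value for the 4 libraries together, which also precludes leaving out a replicate. Depth is unknown, so what it limits was not measured.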
